A study of Solanum chacoense with 24 samples.

Results

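EE501F2_099 and EE501F2_500 are sister lines from the F2 generation of a cross in Solanum chacoense, a wild diploid relative of the potato, and both were classed as susceptible to the Colorado potato beetle. Their 6 leaf RNA libraries, 3 per line, were taken by line name from the 24 libraries of the series. The cross joined 80-1 (USDA8380-1), which resists the beetle, and M6, an inbred susceptible line, and each parent gave 3 libraries that serve here as the reference for the direction of every difference. Another susceptible F2 line, EE501F2_093, gave another 3. Lines were propagated in vitro, so that the plants of a line come from 1 individual, and the leaflets were sampled 16 weeks post-transplant in a growth chamber at 20 °C (16 h day, 70% humidity). Each F2 line is thus a single genotype, and p-values over its plants speak of these lines and not of susceptible plants in general. Because both lines belong to the same class, a difference between them cannot follow the resistance trait, and the comparison shows how far 2 sister genotypes differ when the class is held constant.

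In an F2, each individual inherits a mosaic of parental segments, and at any locus it can carry the allele of one parent on both chromosomes, that of the other parent on both, or one of each. Genes that lie on the same segment are inherited together. Where the alleles of a gene differ in activity in cis, its transcript level is known to follow the segment, and a plant with one allele of each parent often lies between the parental levels. Genes controlled in trans need not follow their own segment.

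Total counts ran from 24975448 to 40825791 in the libraries of the 2 lines and the parents. The spread between plants was larger in EE501F2_099 than in EE501F2_500, with a common biological coefficient of variation of 0.289 and 0.24, against 0.132 in 80-1 and 0.199 in M6. In a principal component analysis of log2 CPM (counts scaled to library size after TMM normalization) over these 12 libraries, the first component (41% of the variance) separated the parents, with 80-1 between -126.5 and -121.2 and M6 between 72.03 and 88.45. Both F2 lines lay between them, EE501F2_099 at 24.18 to 47.24 and EE501F2_500 at 7.342 to 16. The component PC2 (26.9%) set both lines below the parents (26.35 to 79.97) and apart from each other, with EE501F2_099 at -44.82 to 5.06 and EE501F2_500 at -96.71 to -74.33. On PC3 (13.9%) the lines lay on either side of 0, with EE501F2_099 at -79.91 to -63.02 and EE501F2_500 at 34.88 to 51.65. The deposited table does not pair its gene model IDs with names, so neither the roles of the models nor the leaf markers could be examined.

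Of 21072 gene models tested, 4326 (20.5%) differed between the lines at a Benjamini-Hochberg adjusted p under 0.05 in edgeR's quasi-likelihood test. Of these, 2198 (10.4% of those tested) were higher in EE501F2_099 and 2128 (10.1%) were higher in EE501F2_500. A difference of at least 2-fold was found for 2226 of them (10.6%), and the median absolute log2 fold change was 1.03 over the called models and 0.32 over all tested. The plants of the 2 lines did not overlap at 6718 models (31.9%), among them 3967 of the called ones. The count of 4326 rests on a spread shared by 7 lines, and 1909 models were called when the 6 libraries were fitted alone.

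Among the 10 pairs that can be formed from the 5 F2 lines in the fit, this pair had the fewest calls. The share of models called was 20.5% here, 34.4% between the resistant lines EE501F2_089 and EE501F2_516, 32.8% between EE501F2_093 and EE501F2_099, and 35.9% between EE501F2_093 and EE501F2_500. The highest share, 56.2%, was between EE501F2_093 and EE501F2_516. The pairs share lines, and libraries of EE501F2_093 were deeper than those of any other line, so the counts stand side by side without a test.

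The parents differed at 9241 models (43.9%). Of the 4326 models that differed between the lines, 2621 (60.6%) also differed between the parents. EE501F2_500 was on the 80-1 side in 1666 of these 2621 (63.6%), meaning that the line difference ran opposite to 80-1 minus M6, and EE501F2_099 was on the 80-1 side in 955 (36.4%). No library is shared by the parental and the line comparison. Both come from the same fit, however, so each model has the same estimated spread in both, and the calls are not independent. A model called between the parents was called between the lines in 28.4% of cases, and a model not called between the parents in 14.4%. The remaining 1705 line differences had no call between the parents, a count that fell to 1063 without EE501F2_500 replicate 1. On the 6 libraries of each contrast alone, the counts were 855 with EE501F2_500 on the 80-1 side, 411 with EE501F2_099 on it and 643 with no parental call.

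The largest differences were models read in one line and at 0 in the other, and in each of the 4 named by rule 1 parent had at most 0.129 CPM. The model g21266 (chromosome 5, 18154946 to 18156957) had 26.6, 23.2 and 20.7 CPM in the plants of EE501F2_500 and no count in any plant of EE501F2_099. Its level in 80-1 was 19.2, 19.9 and 20.7 CPM, and M6 had no count. EE501F2_500 thus stood at the level of 80-1 and EE501F2_099 at that of M6, at least 888-fold apart (edgeR adjusted p = 1.79e-11), while EE501F2_093 had 12, 9.54 and 11.6 CPM, between the parents. The model g6900 (chromosome 5, 36115743 to 36119350) had 10.8, 13.2 and 14 CPM in EE501F2_500 and no count in EE501F2_099 or M6, at least 484-fold higher in EE501F2_500 (adjusted p = 3.83e-08). All 3 plants of EE501F2_500 were above the 80-1 plants, which had 3.95, 5 and 2.77 CPM.

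Higher in EE501F2_099 by the largest margins were g7759 and g15698. The model g15698 (chromosome 3, 29176696 to 29183535) had 5.93, 5.07 and 5.03 CPM in EE501F2_099 and no count in EE501F2_500, at least 150.2-fold higher (adjusted p = 6.04e-10). Its parental levels were 4.74, 3.35 and 3.18 CPM in M6 and at most 0.129 CPM in 80-1, so each line lay near 1 parent. The model g7759 (chromosome 1, 61147385 to 61147795) had 4.72, 13.7 and 2.98 CPM in EE501F2_099 and no count in EE501F2_500 (at least 207-fold, adjusted p = 2.13e-05). Every plant of EE501F2_099 exceeded every plant of 80-1 (0.237, 0.862 and 2.43 CPM), and M6 had at most 0.106 CPM. The bounds rest on 3 counts over the 3 libraries at 0 and cover counting error only.

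Models in which EE501F2_099 was on the 80-1 side included g19638 and g281. For g19638 (chromosome 12, 41550165 to 41550838) the plants of EE501F2_099 had 37.7, 19.7 and 84.7 CPM and those of EE501F2_500 had 0.111, 0.0382 and 0.0636 CPM. The log2 fold change was 9.32 ± 1.11 (SE; adjusted p = 8.32e-06), with 19.9 to 29.2 CPM in 80-1 and at most 0.991 CPM in M6. For g281 (chromosome 1, 57022076 to 57023454) EE501F2_500 had 9.92, 9.88 and 11.4 CPM, between 15.9 to 22.8 CPM in M6 and at most 0.0395 CPM in 80-1. EE501F2_099 had 1 count in its 3 libraries, so the counts stood at 1191 to 1 after scaling (adjusted p = 4.16e-11), with a 95% counting interval of 213 to 47107. The model g21831 (chromosome 1, 63068822 to 63070026) had 43.7, 54.9 and 28.7 CPM in EE501F2_500, above the 1.93 to 2.59 CPM of M6, and 0.267, 0.222 and 0.506 CPM in EE501F2_099, overlapping the 0.237 to 0.431 CPM of 80-1 (log2 fold change -6.98 ± 0.61, adjusted p = 1.87e-07).

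**Figure D1:**
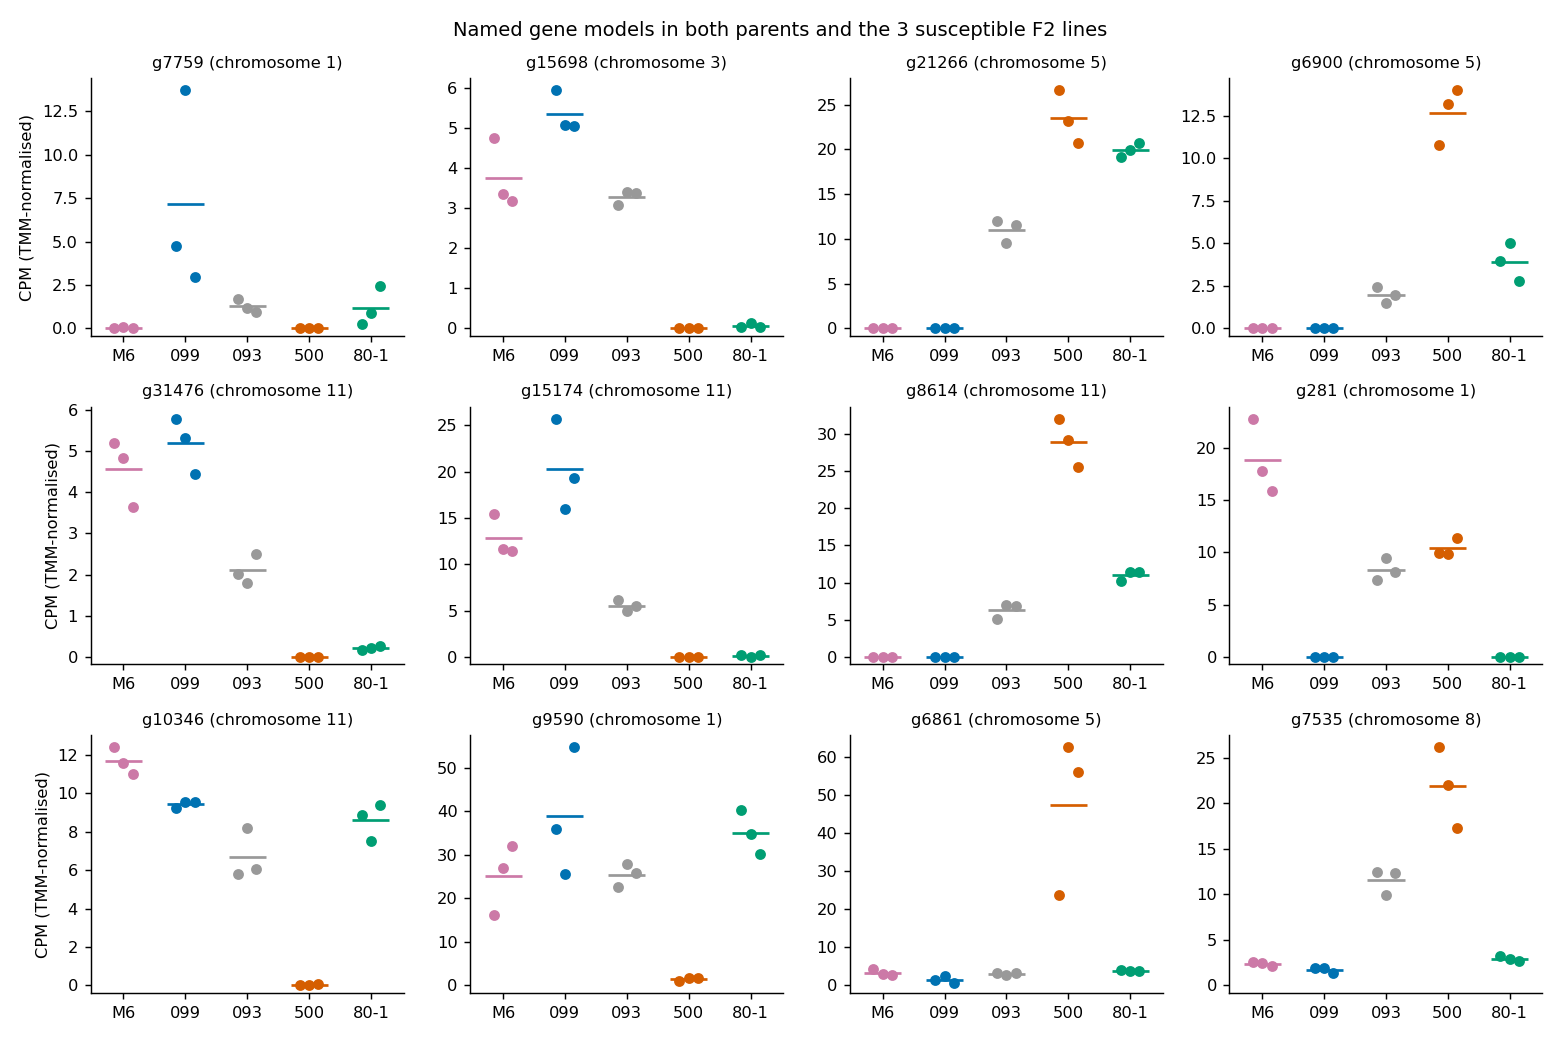
CPM of 12 named gene models in M6, EE501F2_099, EE501F2_093, EE501F2_500 and 80-1 on linear axes; points are plants (3 per line) and bars are line means. In g21266 and g8614 EE501F2_099 lies with M6 near 0 and EE501F2_500 is high like 80-1 or above it, in g15698, g31476 and g15174 the lines are the other way round, and in the bottom row the parents are alike while the lines are apart.

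By chromosome, the share of models called ran from 15.6% on chromosome 12 to 29.1% on chromosome 11. Chromosome 1 was next with 24.6%, and chromosomes 2 (15.9%) and 7 (16.2%) were near the low end. The parental share varied less, from 41.4% on chromosome 2 to 48.9% on chromosome 11. Of the parental calls of chromosome 11, 42.5% were also called between the lines, against 19.1% on chromosome 12 and 19.9% on chromosome 4. Chromosome 11 had the highest share and chromosome 1 the next in all 14 alternatives, other fits and left-out plants of the 2 lines included.

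The side of the lines also differed by chromosome. EE501F2_500 was on the 80-1 side in 234 of 291 models called in both comparisons on chromosome 6 (80.4%), in 175 of 221 on chromosome 5 (79.2%) and in 177 of 228 on chromosome 3 (77.6%). On chromosome 2 the sides were even, with 93 of 187 (49.7%), and on chromosome 10 likewise, with 69 of 140 (49.3%). Chromosome 7 leaned the other way, with EE501F2_500 on the 80-1 side in 65 of 167 (38.9%).

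**Figure D2:**
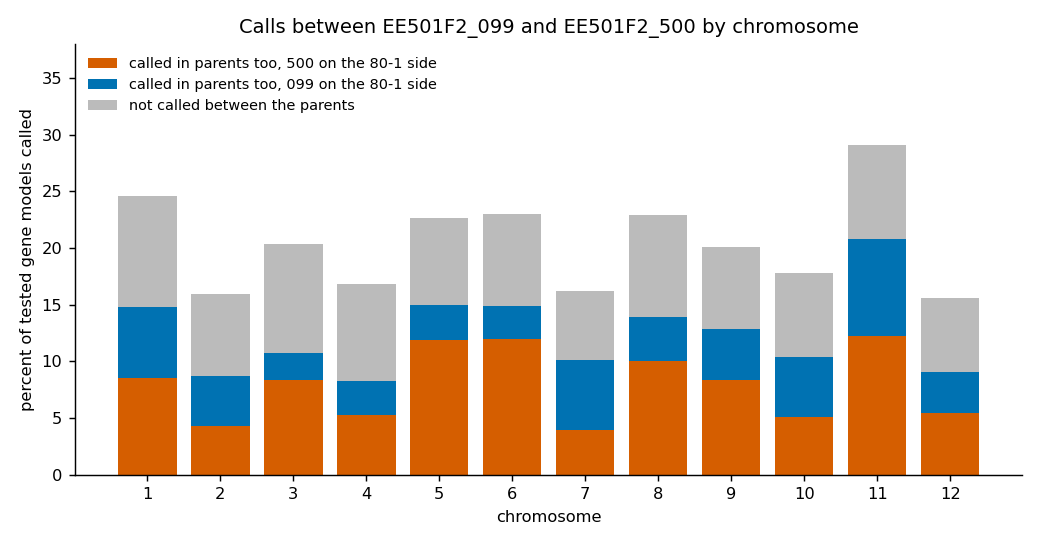
Percent of tested gene models called between EE501F2_099 and EE501F2_500 on each chromosome, stacked by whether the model was also called between the parents and which line was on the 80-1 side. The bars reach 29.1% on chromosome 11 and 15.6% on chromosome 12, and the part with EE501F2_500 on the 80-1 side is the largest of the 3 on chromosomes 5, 6, 8, 9 and 11.

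To set the lines beside the parents by position, a parental state was computed from 2532 models. These were called between the parents with a log2 difference of 2 or more in either direction. The state is a ratio of transcript levels and not a genotype. For each plant the CPM minus the M6 mean was divided by the 80-1 mean minus the M6 mean, so that 0 is the level of M6, 1 that of 80-1 and 0.5 the mid-parent level. Over all these models the median was 0.299, 0.295 and 0.332 in the plants of EE501F2_099 and 0.478, 0.463 and 0.474 in those of EE501F2_500. The plants did not overlap, and EE501F2_099 was nearer M6 (0.309 ± 0.0201 against 0.472 ± 0.00803, SD, n = 3 plants; p = 0.1 in a two-sided exact permutation test, which cannot go lower with 3 plants a line). EE501F2_093 had 0.445 ± 0.0263. The state depended on which parent had the higher level: models higher in 80-1 had line values of 0.196 in EE501F2_099 and 0.263 in EE501F2_500, and models higher in M6 had 0.458 and 0.686.

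In 5 Mb windows with at least 5 such models, the lines differed in 46 of 98, by a rule that asked for plants that do not overlap and line values at least 0.25 apart. EE501F2_500 was the higher line, nearer 80-1, in 39 of them and EE501F2_099 in 7. In a variant, models higher in 80-1 and models higher in M6 had equal weight, a choice made after the data were seen. By it the lines differed in 28 of 84 windows. Of the 46 windows, 39 had such a value, and all 39 kept their sign, but only 25 met the rule again. The variant uses the same models and plants. EE501F2_099 was below 0.25 in 42 windows and above 0.75 in 6, whereas EE501F2_500 was below 0.25 in 17 and above 0.75 in 17. Plants of a line lay over 0.4 apart in 1 window for EE501F2_099 and in 3 for EE501F2_500, and the median range of the plants over the windows was 0.119 and 0.140.

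Of the 46 windows that differed, 37 lay in 10 blocks of successive windows with the same line higher, passing over windows with too few models, and 9 stood alone. The longest block covered 8 windows over the first 40 Mb of chromosome 6, with EE501F2_099 at 0.012 to 0.325 and EE501F2_500 at 0.385 to 0.746. In the part from 5 to 25 Mb of that block EE501F2_093 was higher than both, at 0.890 to 0.991, so that the 3 susceptible lines occupied different states there. Another block of 5 windows with EE501F2_500 higher lay within 0 to 30 Mb of chromosome 3, where EE501F2_093 (0.001 to 0.251) stayed near EE501F2_099 (0.002 to 0.166). EE501F2_099 was the higher line in 3 windows at 25 to 40 Mb of chromosome 11, at 0.429 to 0.471 against 0.035 to 0.111, and in 2 windows at 60 to 70 Mb of chromosome 1.

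**Figure D3:**
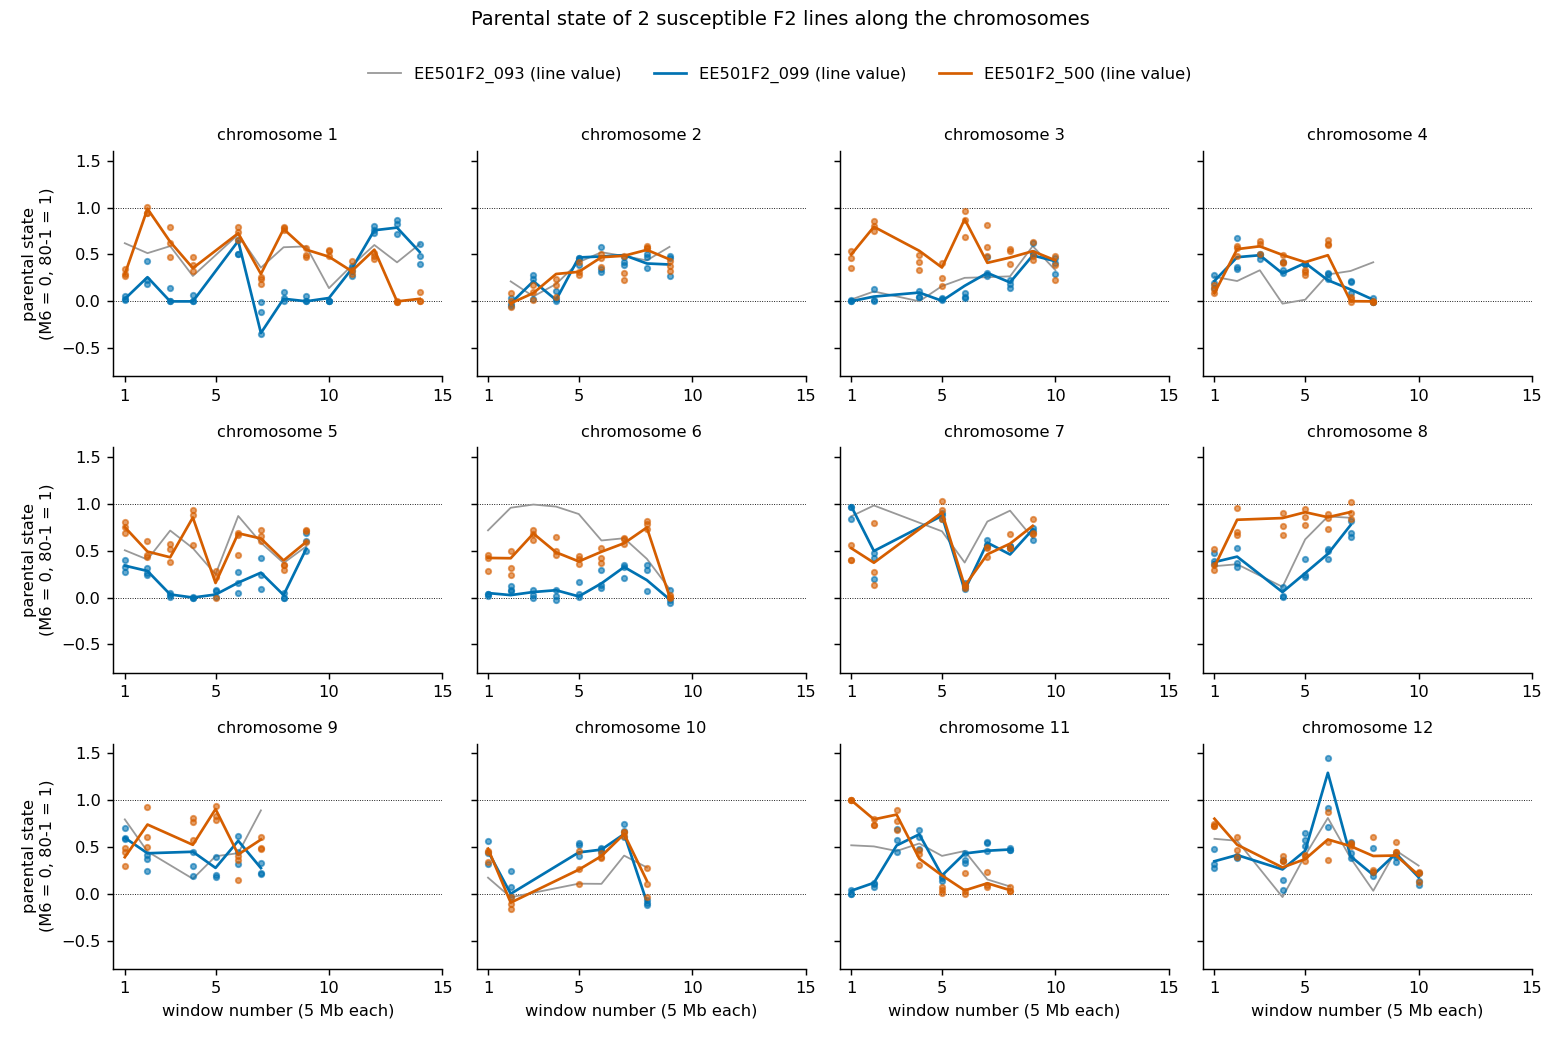
Parental state (M6 = 0, 80-1 = 1, dotted lines) in successive 5 Mb windows of the 12 chromosomes, each with at least 5 models; lines join line values of EE501F2_099, EE501F2_500 and EE501F2_093 over any window left out, and points are single plants of the first 2. The 2 lines are at opposite ends at the start of chromosome 11 (0.032 and 0.996) and mostly close together on chromosome 2, where no window differed by the rule.

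The lines stood at opposite ends, one below 0.25 and the other above 0.75, in 8 windows, 7 of them with EE501F2_500 near 80-1. The widest gap that rested on many models was at 0 to 5 Mb of chromosome 11, where EE501F2_099 had 0.032 and EE501F2_500 had 0.996 over 54 models, with EE501F2_093 at 0.516. Weighting both directions equally gave 0.034 and 1.071. This was also the window with the largest share of models called between the lines, 168 of 398 (42.2%). EE501F2_500 was on the 80-1 side in 105 of them, EE501F2_099 in 10, and 53 had no call between the parents. Models that set the state are among the 168, so this split is not independent of it. Of the 149 models called between the parents at less than 4-fold, which did not set it, 77 were called between the lines. EE501F2_500 was on the 80-1 side in 68 of these 77 and EE501F2_099 in 9. The reverse case was 60 to 65 Mb of chromosome 1, with EE501F2_099 at 0.786 and EE501F2_500 at 0.000 over 47 models (0.575 and 0.012 with equal weights), and 151 of 489 models called (30.9%).

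The models named in the chromosome 11 window are among those that set its state and were picked for their large line difference, so their values describe it and add no support. The model g8614 (4034338 to 4035178) had 32, 29.2 and 25.5 CPM in EE501F2_500 and 1 count in the 3 libraries of EE501F2_099, a ratio of 3269 in scaled counts with a 95% interval of 586 to 129174 (adjusted p = 3.65e-12). M6 had no count of g8614 and 80-1 had 10.2 to 11.4 CPM, below every plant of EE501F2_500. The model g15175 (1090625 to 1095470) had 6.67, 7.33 and 6.96 CPM in EE501F2_500 and none in EE501F2_099 (at least 265-fold, adjusted p = 1.16e-09), beside 3.19 to 5.21 CPM in 80-1 and at most 0.0291 CPM in M6.

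In the other direction, g15174 (1084665 to 1085842), the neighbour of g15175, had 25.7, 16 and 19.3 CPM in EE501F2_099 and 1 count in EE501F2_500, a ratio of 1697 with an interval of 304 to 67050.3 (adjusted p = 3.13e-10). M6 had 11.4 to 15.4 CPM of g15174 and 80-1 at most 0.198 CPM. The model g31476 (4127138 to 4128691), which overlaps 1 other model so that its reads may be shared, had 5.78, 5.32 and 4.45 CPM in EE501F2_099 and none in EE501F2_500 (at least 146-fold, adjusted p = 2.41e-09). For all 4 models the plants of EE501F2_093 lay between the 2 lines, for example 5.12 to 6.92 CPM of g8614 and 4.96 to 6.16 CPM of g15174. The neighbours g15174 and g15175 were thus high in opposite lines, each line with the parent in which the model was high. The naming rule takes models of both directions, so opposite directions among the 4 are no result.

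Models that differed between the parents by less than 4-fold did not enter the parental state, although they come from the same libraries. In the 39 windows with EE501F2_500 nearer 80-1, 764 of 2510 such models were called between the lines, and EE501F2_500 was on the 80-1 side in 600 of the 764 (78.5%). In the 7 windows with EE501F2_099 nearer 80-1, it was so in 41 of 163 (25.2%), and in the other 52 windows in 405 of 727 (55.7%). The share called was 30.4% in both kinds of windows that differed and 20.5% in the rest. Models without a parental call were called between the lines in 15.9% of cases in the windows that differed and in 13.3% elsewhere.

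Places differed in how the line difference compared in size with the parental one. At 0 to 5 Mb of chromosome 11, the median ratio of the line to the parental log2 fold change was -0.57 over 149 models under 4-fold between the parents, and the correlation across these models was r = -0.56. At 60 to 65 Mb of chromosome 1 the ratio was 0.29 and r = 0.25 over 136 models. At 20 to 45 Mb of chromosome 2, where both lines were near the mid-parent level, the ratio was -0.02 and r = -0.07 over 558 models. In some places that differed in state the ratio over the models outside it was small. At 0 to 5 Mb of chromosome 7, with states of 0.973 and 0.526, the ratio was -0.01 and r = -0.04 over 114 models. At 15 to 20 Mb of chromosome 5, with states of 0.000 and 0.853, the ratio was -0.11 and r = -0.30 over 22 models, and 4 called models lay on either side. Of the other places examined, those with EE501F2_500 nearer 80-1 had r from -0.32 to -0.76. The ends were 5 to 10 Mb of chromosome 11 (81 models) and 15 to 20 Mb of chromosome 8 (19 models). At 0 to 15 Mb of chromosome 2, r was -0.12 over 68 models. The places were chosen after the parental state was seen, the models of a place share libraries and segments, and r is given as a description.

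**Figure D4:**
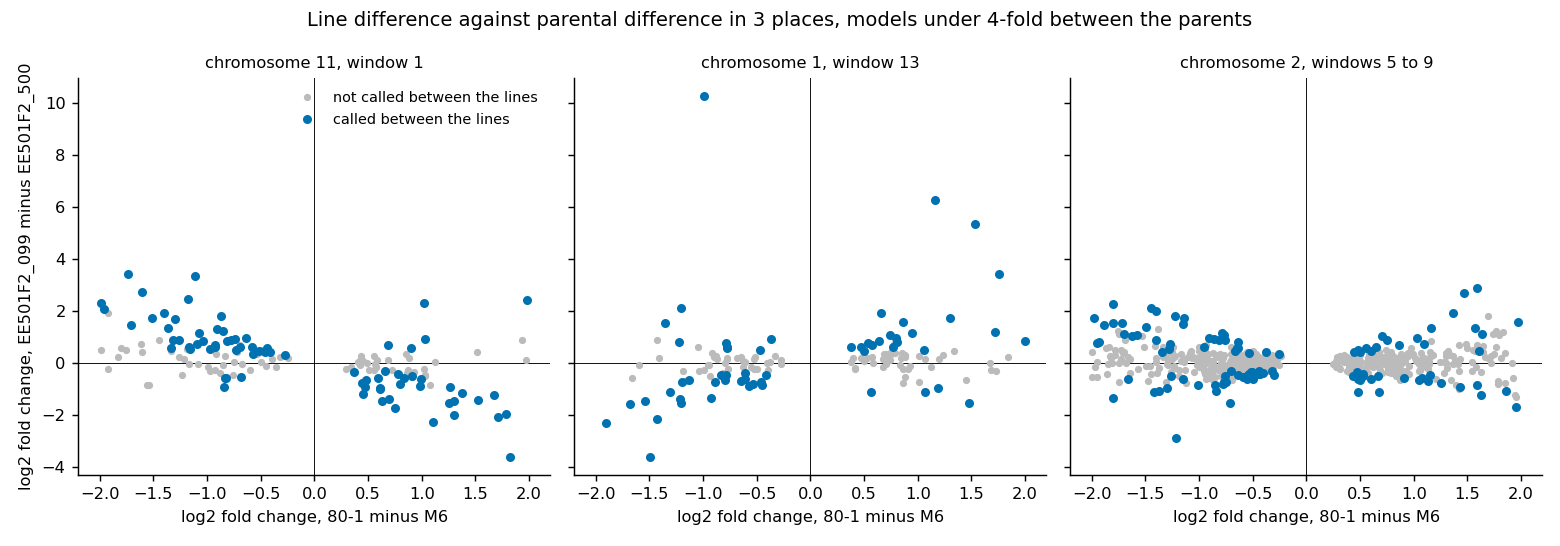
Log2 fold change between EE501F2_099 and EE501F2_500 against that between 80-1 and M6 in 3 places, for models called between the parents at less than 4-fold; blue models were called between the lines. The points slope down in the first window of chromosome 11 (r = -0.56), up in window 13 of chromosome 1 (r = 0.25) and lie along the horizontal axis on chromosome 2 (r = -0.07).

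The larger the parental difference, the larger was the share of models called between the lines. It was 14.8% of models under 0.5 in absolute parental log2 fold change, 20.6% from 0.5 to 1, 26.9% from 1 to 2, 31.6% from 2 to 4 and 41.2% from 4 on. In the windows that differed, the share rose from 16.6% to 51.9% over the same classes, and in the other windows from 13.4% to 29.5%. The windows were chosen on the 2 highest classes, so only the 3 lower ones took no part in that choice.

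**Figure D5:**
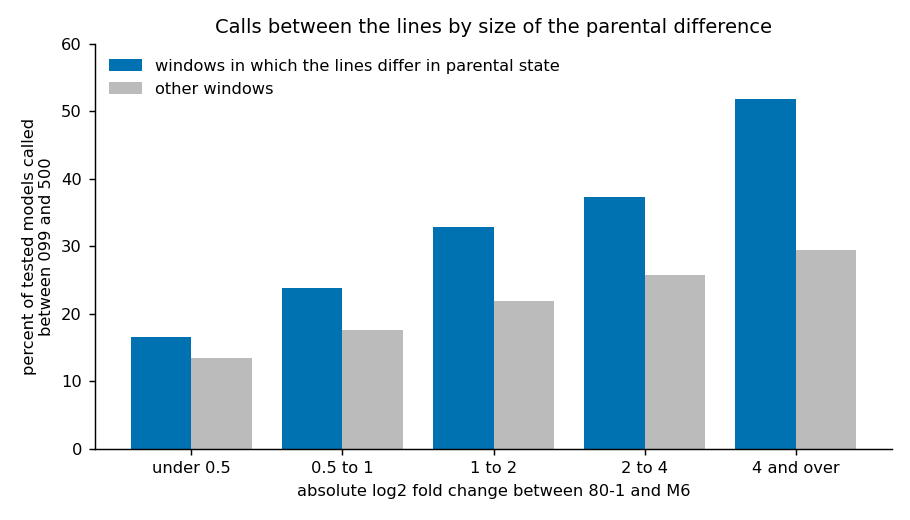
Percent of tested models called between EE501F2_099 and EE501F2_500 by absolute log2 fold change between 80-1 and M6, in windows in which the lines differed in parental state and in the other windows. Both sets of bars rise with the parental difference, to 51.9% and 29.5% in the highest class.

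On chromosome 2 no window differed by the rule, although 343 of its 2153 models were called. At 15 to 20 Mb the line values were 0.015 in EE501F2_099 and 0.292 in EE501F2_500, but the plants overlapped. From 20 to 45 Mb both lines and EE501F2_093 had states of 0.315 to 0.581, and at 5 to 10 Mb EE501F2_099 had -0.021, EE501F2_500 had -0.020 and EE501F2_093 had 0.213. Chromosome 10 had no window that differed either, and chromosomes 4, 7 and 12 had 1 each. The one on chromosome 7 was at 0 to 5 Mb, where EE501F2_099 had 0.973, EE501F2_500 had 0.526 and EE501F2_093 had 0.866. Of the models there under 4-fold between the parents, 27 of 114 were called between the lines, 16 with EE501F2_099 and 11 with EE501F2_500 on the 80-1 side. All 3 susceptible lines were below 0.25, near M6, in 5 of the 98 windows.

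Of the 1705 models called between the lines and not between the parents, 775 were higher in EE501F2_099 and 930 in EE501F2_500. Their median absolute log2 fold change was 0.94 between the lines and 0.26 between the parents. At least 1 line lay beyond both parents, with a call against each, in 1118 of the 1705 (65.6%), against 24.2% of all models tested. Among the 2621 models called in both comparisons it was 821 (31.3%), so the side of a line does not place it between the parents. The calls against the parents share the libraries of the lines with the comparison that chose the models, so the gaps between these shares are not read further. EE501F2_500 was above both parents in 474 and below both in 345, and EE501F2_099 in 207 and 202.

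The models named for this group had parental levels within a log2 fold change of 0.5 of each other. The model g10346 (chromosome 11, 5544242 to 5549246) had 9.23, 9.55 and 9.53 CPM in EE501F2_099 and 0.0369, 0.0382 and 0.0636 CPM in EE501F2_500 (log2 fold change 7.54 ± 0.40, adjusted p = 2.55e-10). Both parents were at the level of EE501F2_099, with 7.54 to 9.4 CPM in 80-1 and 11 to 12.4 CPM in M6. The model g9590 (chromosome 1, 59114376 to 59115729) had 36, 25.7 and 54.8 CPM in EE501F2_099 and 1.11, 1.64 and 1.59 CPM in EE501F2_500 (log2 fold change 4.74 ± 0.31, adjusted p = 4.4e-09), beside 30.1 to 40.4 CPM in 80-1 and 16.3 to 32.1 CPM in M6. Every plant of EE501F2_500 was below the parental plants in both, while the plants of EE501F2_099 overlapped them.

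In the 2 models named for the opposite direction, every plant of EE501F2_500 was above the parental plants and every plant of EE501F2_099 below them. The model g6861 (chromosome 5, 35479998 to 35481638) had 23.9, 62.7 and 56.2 CPM in EE501F2_500 and 1.39, 2.49 and 0.708 CPM in EE501F2_099, where all parental plants had 2.83 to 4.21 CPM (log2 fold change -4.95 ± 0.44, adjusted p = 2.47e-07). The model g7535 (chromosome 8, 370945 to 373371) had 26.2, 22 and 17.3 CPM in EE501F2_500 and 1.93, 1.92 and 1.34 CPM in EE501F2_099 (log2 fold change -3.66 ± 0.25, adjusted p = 8.39e-09). Parental plants had 2.1 to 3.24 CPM of g7535, and EE501F2_093 had 9.91 to 12.4 CPM, above both parents as well.

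Counting all models, 22 had at least 1 CPM on average in EE501F2_099 and no count in EE501F2_500, and 30 had the reverse. No count in 3 libraries allows up to 0.0354 CPM in EE501F2_500 and 0.0263 CPM in EE501F2_099. All 52 had counts in every plant of the line that read them. Chromosomes 8 and 11 held 6 each of the 22, beside 1177 and 1549 of the 21072 models tested. Chromosomes 6 and 3 held 7 and 6 of the 30, beside 1959 and 2124 of those tested. Of the 22 models read in EE501F2_099, 14 were called between the parents as higher in M6, 7 as higher in 80-1, and 1 was not called. Of the 30 read in EE501F2_500, 19 were called as higher in 80-1, 2 as higher in M6, and 9 were not called. Of all models tested, 43.9% were called between the parents. This tally was chosen after the values were seen.

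The most abundant called models with plants that did not overlap were g8110 (chromosome 5, 41489203 to 41493973) and g1689 (chromosome 7, 39214560 to 39219782) in EE501F2_099. The plants of EE501F2_099 had 2121, 1692 and 1653 CPM of g8110 and those of EE501F2_500 had 1254, 1165 and 1171 CPM, a log2 fold change of 0.61 ± 0.21 (adjusted p = 0.0494). That call was lost in 11 of 13 alternatives, and without EE501F2_099 replicate 1 the adjusted p was 0.178. For g1689 the levels were 1851, 1666 and 1585 CPM against 1122, 999 and 1028 CPM (log2 fold change 0.70 ± 0.19, adjusted p = 0.0132; 0.0638 on the 6 libraries alone, 0.0518 without EE501F2_099 replicate 1 and 0.0508 without EE501F2_500 replicate 2).

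Higher in EE501F2_500 were g16823 (chromosome 9, 26676746 to 26678051) and g24447 (chromosome 12, 566916 to 569958). For g16823 the plants had 1629, 1911 and 1872 CPM in EE501F2_500 and 1335, 664 and 1092 CPM in EE501F2_099 (log2 fold change -0.81 ± 0.25, adjusted p = 0.027; 0.0785 on all 24 libraries, 0.127 on the 6 alone, 0.0969 without EE501F2_099 replicate 2, 0.0763 without EE501F2_500 replicate 2 and 0.0588 without its replicate 3). For g24447 they had 1624, 1774 and 1114 CPM against 817, 438 and 678 CPM (log2 fold change -1.22 ± 0.26, adjusted p = 0.00245). Every plant of EE501F2_500 had more g24447 than any parental plant (300.3 to 447 CPM), while the lowest plant of EE501F2_099 lay within the range of 80-1.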

How the data were processed

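Raw counts of 24 libraries, 1 column each, were deposited by the authors in 1 table of gene models. Model length, the other measure deposited by the authors, entered no test. Per the submitters' processing notes the tools were Trimmomatic 0.35, STAR 2.6.0, Subread, featureCounts 1.5.3 and DESeq2; their roles and order are not stated. Genome build, strand setting and handling of multi-mapping reads: not given in the sources used here. Hence it is not known whether reads of near-identical copies or antisense neighbours were separated. Coordinates are those of the table, counted from 1. The 7954 models on an unplaced sequence had no count in any library and were left out.

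Counts were fitted in R 4.3.3 with edgeR 4.0.16 (filterByExpr, TMM, quasi-likelihood F test, 1 mean per line, 14 residual degrees of freedom) over 21 libraries. EE501F2_641 was left out because an earlier analysis found its plants apart in parental state by position. Benjamini-Hochberg adjustment covered 21072 models, and a standard error is the size of the log2 fold change over the root of its F. Models belong to the window that holds their midpoint. Named were, in each group of called models, the 2 that rose most and the 2 that fell most, given 5 CPM or more in the higher line and no overlap of plants, and the 2 most abundant per direction. Groups were all called, each side, no parental call, the leading chromosome and the leading window. No named model overlapped another, except g31476. The pair, the lists and the rules were chosen with earlier results of these data known. Gene lists by name could not be matched. On simulated data the test recovered, in the right direction, 66 of 100 models changed 2-fold and 91 of 100 changed 4-fold. The changed models were drawn only from those above a minimum mean count, so this recovery does not cover models of low count. The test made 5 calls among the unchanged models. The simulation gave each model the same spread in all lines, unlike the data. Alternatives changed the libraries fitted, scaling, filter, tool (DESeq2 1.42.0), fold, replicate block and index, and left out each plant.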

Additional observations from a re-analysis of the deposited data

How the results depend on the processing

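On the 6 libraries of each contrast alone, 1909 models were called between the lines (997 higher in EE501F2_099, 912 in EE501F2_500), with 411 on the same side as the parents, 855 opposite, 643 without a parental call and 17.1% as the highest chromosome share. Counting calls of 2-fold or more, these were 2226 (1213 and 1013), 453, 830, 943 and 16.1%, and 4906 between the parents. All 24 libraries gave 2928 calls, 556 of them on the same side. DESeq2 gave 5109. Without 1 plant the calls between the lines ran from 3044 to 4268, and those without a parental call from 1063 to 1990. Models not called between the parents were called in 6.98% (windows that differed) and 5.47% (others) on 6 libraries, 8.66% (others) on 24, and 9.88% to 15.3% and 8.06% to 12.5% without 1 plant. The lines differed in 29 windows of 10 Mb, in 26 windows at a least difference of 0.4 and in 28 with both directions weighted equally. The state of EE501F2_500 was 0.465 on the log2 scale and also with models at least 2-fold apart between the parents (EE501F2_093 0.497 there), and 0.466 to 0.476 without 1 plant. Equal weights gave 0.327 for EE501F2_099. The causes were not tested. Of 247 alternative values of the 19 named models none changed sign, and 19 lost the call (11 in g8110, 5 in g16823 and 3 in g1689).

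With the replicate number as a block, 4090 models were called. Same-numbered plants of the 2 lines did not deviate together (correlations -0.0158, -0.377 and -0.239; 0.0201, -0.0895 and 0.0814 in the parents), so the numbers were not taken as pairs. No plant of EE501F2_099 correlated best with the plant of its own number.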

Other observations

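Among the 52 models with at least 1 CPM in one line and no count in the other, 11 had at least 1 CPM in both parents. They were chosen after their values were seen, and 4 are given. The model g26897 (chromosome 6, 31495248 to 31496580) had 33.2, 36.7 and 43.4 CPM in 80-1, 22.3, 55.9 and 55.1 CPM in M6 and 24.7, 15.6 and 17.4 CPM in EE501F2_093. EE501F2_500 had 1.51, 3.55 and 1.49 CPM of it, and EE501F2_099 had no count. The model g12036 (chromosome 3, 35354538 to 35355956) had 3.64 to 4.57 CPM in the parental plants and 1.62, 3.4 and 2.99 CPM in EE501F2_500, with no count in EE501F2_099 and 1 count in EE501F2_093. The reverse held for g40600 (chromosome 1, 60328031 to 60330351), with 4.18, 4.18 and 4.58 CPM in EE501F2_099, 4.15 to 7.02 CPM in 80-1, 10.5 to 12.5 CPM in M6 and no count in EE501F2_500. It held too for g37563 (chromosome 11, 9721316 to 9723067), with 3.26, 1.18 and 3.16 CPM in EE501F2_099, 5.13 to 11.3 CPM in the parental plants, 8 counts in EE501F2_093 and none in EE501F2_500. None of the 4 overlaps another model.

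Called models next to each other on a chromosome often had the same direction. Of 1173 neighbouring pairs with both models called, 759 (64.7%) did, where all called models were near even in direction (2198 and 2128). With neighbours taken only among models called between the parents, the share was 60.8% of 923 pairs. Taken only among models without a parental call, it was 64.4% of 309 pairs. Other models may lie within these pairs, so they are not a part of the 1173. There were 28 runs of at least 4 neighbouring models called in 1 direction, where 20.5% of all tested models were called. No expected number of runs is given beside this count. The longest run had 7 models, all higher in EE501F2_099, at 27471872 to 28337508 of chromosome 1. A run of 6 models higher in EE501F2_500 at 5405366 to 5469895 of chromosome 4 held 1 model called between the parents.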
